A study of Homo sapiens with 2 samples.

Results

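The 59 genes described here lie along the long arm of human chromosome 9, and their transcripts were counted in single UMUC3 cells with and without a knockdown of GANAB. They are the genes whose GENCODE start on GRCh38 falls at chr9:89318506-113255835 and that reached 10 CPM, the number of its unique molecular identifiers (UMIs) among 1000000 UMIs of a library, in at least 1 of the 2 libraries. Of 237 listed genes of that stretch, 64 reached this floor, and 5 of them were left out by name, with a sixth left-out gene below the floor. The 59 that remain stand among 7872 genes that reached the floor in the series, of 33538 listed. The stretch was chosen by the ratio of knockdown over control of its genes over all cells, so that ratio describes the choice and is not a result.

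The study compared UMUC3, a human bladder carcinoma cell line, with a knockdown of GANAB against control UMUC3, with 1 library for each. GANAB is the catalytic subunit of glucosidase II, which trims glucose from new glycoproteins in the endoplasmic reticulum (ER). In both groups the cells were transplanted into the bladders of C57 nude mice, which lack mature T cells, and grown there for 14 days before single cells were loaded on a 10x Genomics 3' channel, 10000 to each. How the knockdown was made, how many mice were used and whether the cells come from a single clone are not stated in the labels. With 1 library per group no test across samples can be made: every interval below is an exact 95% interval for counting error only, and knockdown, mouse and library preparation cannot be told apart.

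Neighbouring genes on a chromosome arm need not share a function. In cancer cell lines, whole arms or stretches of them are often gained or lost, the cells of one line can differ in such changes, and the transcripts of many genes on a gained or lost stretch then tend to be higher or lower together by a modest amount. DNA was not measured here. TMEM132D-AS1, an antisense gene at chr12:129109629-129113294, is used below only to divide cells, because it was present at many UMIs in some cells and at 0 in others.

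Barcodes with at least 15000 UMIs were taken as cells, which gave 2674 in the knockdown library and 4386 in the control library, with medians of 40929 and 44036.5 UMIs per cell in knockdown and in control. The 2 sets shared 4 barcode sequences. GANAB stood at 42.3 CPM in knockdown cells (interval 41.2 to 43.4) and at 127 CPM in control cells (125 to 128). VIM, a mesenchymal filament gene that UMUC3 expresses, was the most abundant of 5 line markers, at 5695 CPM in knockdown cells and 3547 CPM in control cells. Of the 5, the other 4 being keratins, 4 reached 10 CPM in knockdown cells and 3 in control cells. The 5 urothelial markers summed to 3.15 CPM in knockdown cells and 1.45 CPM in control cells, and the 5 fibroblast markers summed to 10.4 CPM in knockdown cells and 14.5 CPM in control cells, with 2 of the 5 at 0 in both.

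In the knockdown library, 1942 cells (72.6%) held at least 2 TMEM132D-AS1 UMIs and 732 cells (27.4%) held fewer. In the control library, 241 cells (5.49%) held at least 2 and 4145 cells (94.5%) held fewer. TMEM132D-AS1 stood at 177 and 3.25 CPM in knockdown cells with at least 2 UMIs and with fewer, and at 144 and 0.209 CPM in control cells with at least 2 UMIs and with fewer. GANAB stood at 38.1 CPM in knockdown cells with at least 2 TMEM132D-AS1 UMIs, 53.9 CPM in knockdown cells with fewer, 130 CPM in control cells with at least 2 and 126 CPM in control cells with fewer. Both classes of knockdown cells were therefore low in GANAB, and both classes of control cells were high.

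Across all cells, the 59 genes together held 3023 CPM in the knockdown library and 2453 CPM in the control library. Their median log2 ratio of knockdown over control was 0.42, beside -0.07 for all 7872 genes, and 49 of 59 ratios were above 0, beside 43.2% of all genes. Below, a gene is called higher or lower where the 2 levels differed at least 1.5-fold and the interval did not hold a ratio of 1, which sorts genes by size and tests nothing. So sorted, 19 of the 59 genes were called higher and 0 lower in the knockdown library, beside 7.7% higher and 10.4% lower among all genes. With the larger level at least 25% above the smaller, 33 were called higher and 0 lower, beside 17.6% and 26.1%. This is the contrast that chose the stretch, and nothing is read from these counts. The floor was passed in both libraries by 50 of the 59, through the knockdown library only by 8 and through the control library only by 1, and 7 of those 8 were among the 19 called higher.

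Along the stretch the ratios were uneven. The first 15 genes, from SECISBP2 to ERCC6L2, had a median log2 ratio of -0.01 for knockdown over control, and 7 of 15 were above 0. The next 15, from SLC35D2 to TEX10, had a median of 0.50, the 15 from MSANTD3 to LPAR1 a median of 0.48, and the last 14, from ECPAS to CDC26, a median of 0.54. In this contrast, the one that chose the stretch, the higher level in the knockdown library did not cover all of it. The proximal 15 genes were near even, and 42 of the other 44 were above 0.

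Nor did the higher level stop at the distal edge. In windows of 20 consecutive measured genes, the median log2 ratio of knockdown over control was 0.62 from TMEM38B to SNX30. It was still 0.33 from ZNF883 to CNTRL, a window that begins with 4 of the 59 genes, and 0.46 from RAB14 to RABEPK, whose last gene starts at 125.2 Mb. Further out it was 0.20 from HSPA5 to GOLGA2 and -0.02 from FNBP1 to RALGDS. At the far end, from QSOX2 to SAPCD2, it was 0.19. Toward the other end, the window next to the stretch, from CARNMT1 to CKS2, stood at 0.12 with 14 of 20 genes above 0. The one before it, from ZCCHC7 to C9orf40, stood at -0.21 but was mixed. Its first 10 genes, from ZCCHC7 at 37.1 Mb, had a median of -0.54. Its last 10, from CBWD5 at 65.7 Mb to C9orf40, had a median of 0.35. The windows from ZDHHC21 to TOPORS and from SMIM27 to GALT, on the short arm, stood at -0.52 and -0.50, so the knockdown library was lower there.

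Of the 5 measured genes next to each edge, 4 on either side had ratios above 0. On the proximal side, CKS2, a cyclin-dependent kinase subunit, starts just before the first of the 59 genes and had a log2 ratio of 0.34, with SPIN1 at 0.36, CTSL at 0.35, TUT7 at -0.25 and ISCA1 at 0.15. On the distal side PRPF4 had 0.17, HDHD3 0.43, ALAD 0.39, POLE3 0.27 and RGS3 -0.27. At the floor, AUH (10.4 CPM in the higher library), ZNF883 (10.6 CPM) and FAM206A (11.2 CPM) were just inside, and TSTD2 (9.77 CPM), ZNF367 (9.57 CPM) and NR4A3 (9.32 CPM) just outside.

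**Figure D1:**
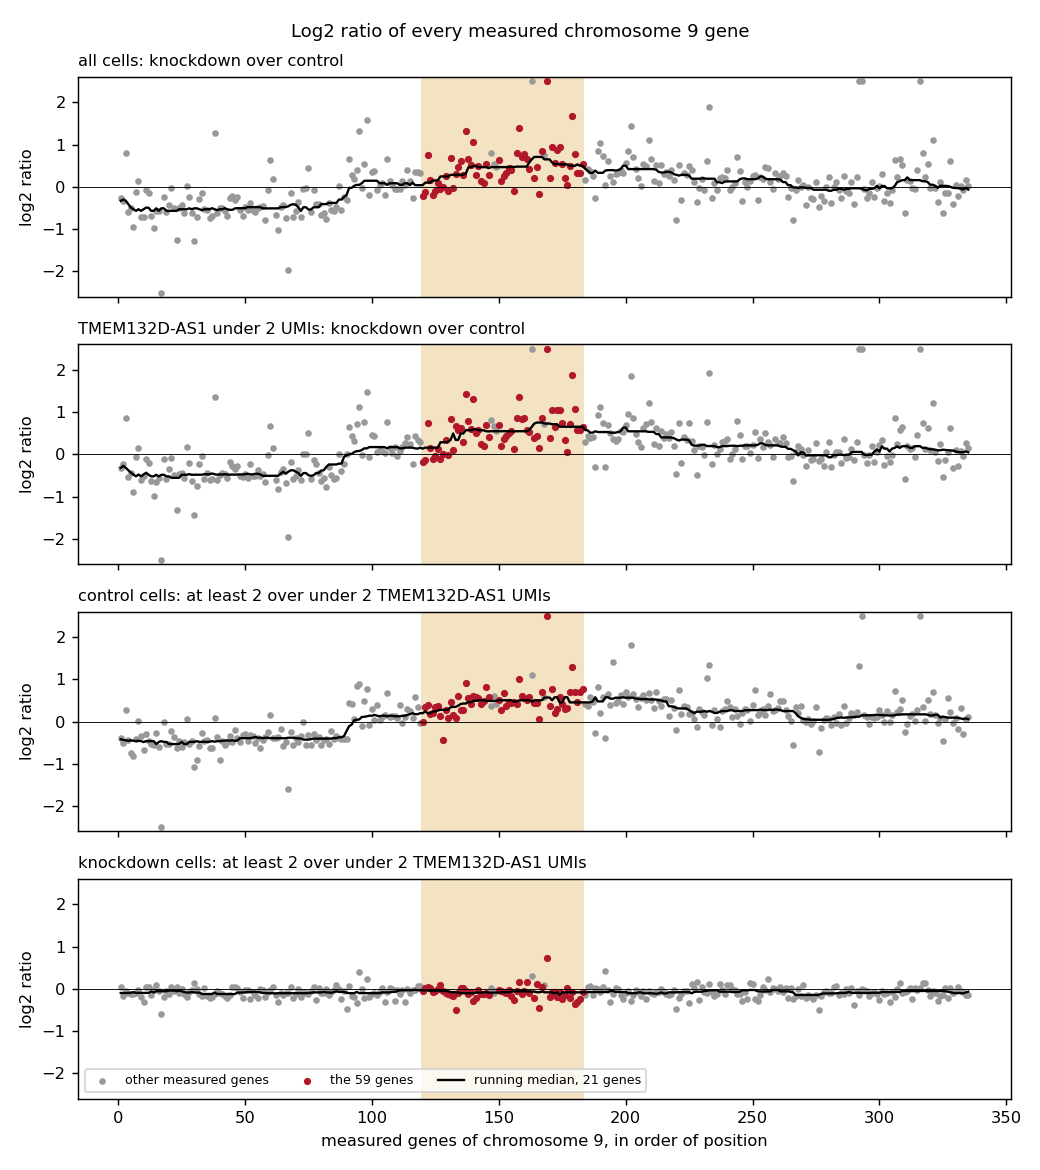
Log2 ratio (vertical axes) of all 335 measured genes of chromosome 9 in order of position (horizontal axis), with the 59 genes in red on a shaded band and a running median of 21 genes as a line; values beyond 2.5 in either direction are drawn at 2.5. The line lies below 0 on the left in the upper 3 panels, climbs within the band and stays above 0 past its right edge, and it is near 0 throughout in the lowest panel, which divides knockdown cells by TMEM132D-AS1.

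Within the control library alone, the 241 cells with at least 2 TMEM132D-AS1 UMIs were set against the other 4145. No knockdown cell enters this contrast, although an earlier look at these data had already shown the stretch higher in some control cells, so it is a description as well. The 59 genes held 3196 CPM in control cells with at least 2 UMIs and 2402 CPM in control cells with fewer. The median log2 ratio was 0.45, beside -0.01 over all genes, and 58 of 59 ratios were above 0, beside 49.2% of all genes. By the 1.5-fold rule 15 were called higher and 0 lower, beside 4.88% higher and 4.23% lower among all genes. Of these 15, 5 had passed the floor through the knockdown library only. At a 25% difference 43 were called higher and 1 lower, beside 14.9% and 13.1%. The lower one was NINJ1, which encodes ninjurin 1, a protein of plasma membrane rupture, at 15.2 CPM in control cells with at least 2 UMIs and 20.7 CPM in control cells with fewer.

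Within control cells the difference was again smallest in the proximal genes: the median log2 ratio was 0.20 for the first 15 genes, 0.55 for the next 15, 0.48 for the 15 after them and 0.52 for the last 14. It was 0.53 in the window from RAB14 to RABEPK, outside the stretch, and -0.47 in that from ZDHHC21 to TOPORS. Small as their median was, 14 of the first 15 genes had ratios above 0, 11 of them with intervals above 0. Of all genes, 49.2% had ratios above 0. This contrast and that of the whole libraries share control cells, so their values are only set side by side.

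Within the knockdown library the same division gave no such difference. The 59 genes held 2961 CPM in knockdown cells with at least 2 UMIs and 3194 CPM in knockdown cells with fewer. The median log2 ratio was -0.08, beside -0.05 over all genes, and 12 of 59 ratios were above 0, beside 35.7% of all genes. Of the 59, 54 lay between -0.3 and 0.3. That band is not particular to them, as the quartiles of all genes were -0.15 and 0.05. By the 1.5-fold rule LPAR1 alone, which had passed the floor through the knockdown library only, was called higher and 0 genes were called lower, beside 0.318% and 0.673% of all genes. At a 25% difference 1 was called higher and 3 lower, beside 1.68% and 4.84%. In 47 of 59 genes the level in knockdown cells with fewer than 2 UMIs was at least that in knockdown cells with 2 or more.

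The knockdown cells low in TMEM132D-AS1 were therefore as high in these genes as the rest of their library. Set against control cells with fewer than 2 UMIs, which are 94.5% of the control cells of the contrast that chose the stretch, so that these values too describe that choice, they had a median log2 ratio of 0.57, beside -0.03 over all genes. By the 1.5-fold rule 25 of 59 were called higher and 0 lower, beside 8.0% and 8.49% of all genes, and 7 of the 25 had passed the floor through the knockdown library only. At a 25% difference 42 were called higher and 0 lower, beside 18.9% and 21.8%, and 53 ratios were above 0, beside 46.5% of all genes. Among cells with at least 2 UMIs in both libraries, the median log2 ratio of knockdown over control was -0.04, beside -0.09 over all genes, 28 of 59 ratios were above 0, beside 37.7% of all genes, and 0 genes were called higher and 1 lower, SMC2, beside 3.46% and 4.75% of all genes. At a 25% difference 11 were called higher and 8 lower, beside 9.69% and 19.5%. For 49 of 59 genes all of the 3 other classes were above control cells with fewer than 2 UMIs. These comparisons share that class, and those of the knockdown classes largely repeat the contrast that chose the stretch. The share over all genes is not given, so nothing is read from this count. By the medians above, the higher level went with TMEM132D-AS1 in the control library. In the knockdown library it was present whether or not a cell held TMEM132D-AS1.

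**Figure D2:**
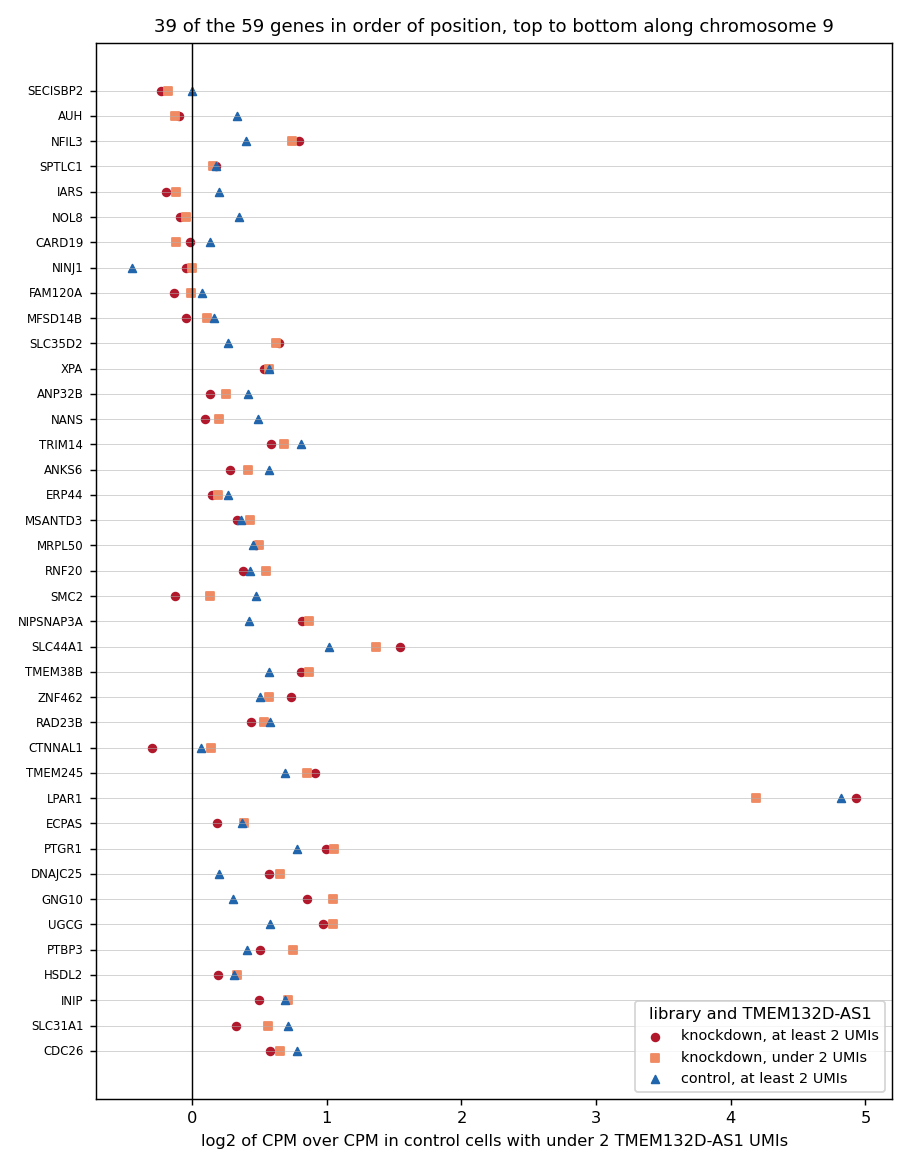
Log2 of each gene's CPM over its CPM in control cells with fewer than 2 TMEM132D-AS1 UMIs (horizontal axis) for 39 of the 59 genes, those taken by abundance, ratio and role, in order of position (vertical axis), for knockdown cells with at least 2 UMIs, knockdown cells with fewer and control cells with at least 2. The 3 symbols lie close together to the right of 0 for most genes, near 0 in the proximal rows, and farthest right for LPAR1.

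Counted cell by cell, the 44 genes from SLC35D2 to CDC26 showed the same. In knockdown cells with 0, 1, 2, 3 to 4, 5 to 9 and 10 or more TMEM132D-AS1 UMIs, their median was 24.3, 24.8, 23.0, 22.9, 22.6 and 23.0 UMIs per 10000 UMIs of a cell. In control cells of those classes it was 17.8, 19.9, 21.7, 24.2, 25.0 and 25.3, over 4103, 42, 17, 48, 99 and 77 cells. Without thinning, the control medians were higher in each class than in the one before, while the knockdown medians stayed within the range of the control classes from 2 UMIs up. With TMEM132D-AS1 thinned to 15000 UMIs a cell, the order was less regular. All 59 genes then had medians of 30.0, 28.9, 29.0, 26.4, 25.6 and 15.7 UMIs per 10000 in knockdown cells with 0, 1, 2, 3 to 4, 5 to 9 and 10 or more UMIs, the last over 15 cells, against 29.5, 30.0, 27.9, 27.7, 27.4 and 27.9 without thinning. In control cells with 0, 1, 2, 3 to 4 and 5 to 9 UMIs they had 22.9, 28.6, 29.8, 30.0 and 29.1 thinned, against 22.8, 25.4, 26.7, 29.2 and 30.1 without thinning. The thinned knockdown medians were thus lower in the higher classes, and the thinned control medians were alike from 1 UMI up and lowest at 0. Spread among cells was wide: the middle 50% of control cells with 0 UMIs ran from 14.0 to 21.7, and that of control cells with 10 or more from 22.1 to 30.3. The 15 proximal genes had medians of 4.88 in knockdown cells and 4.74 in control cells with 0 UMIs, and of 4.74 in knockdown cells and 5.57 in control cells with 10 or more.

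**Figure D3:**
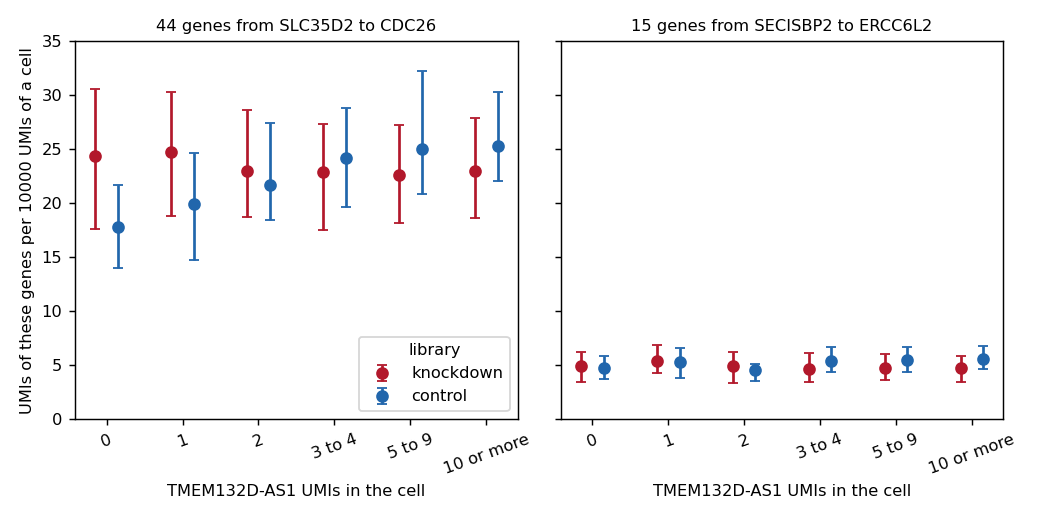
Median UMIs of the 44 later genes (left) and of the 15 proximal genes (right) per 10000 UMIs of a cell (vertical axis) by the cell's TMEM132D-AS1 UMIs (horizontal axis), in knockdown cells and control cells; bars span the middle 50% of cells. Classes are by unthinned UMIs; on the left the control medians climb from 17.8 at 0 UMIs to 25.3 at 10 or more, and the knockdown medians stay between 22.6 and 24.8.

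Depth, markers of other cells and cell cycle genes differed between these classes. Free RNA was measured by library only. The part of all of these in the results was not tested. Control cells with at least 2 TMEM132D-AS1 UMIs had a median of 51552 UMIs and control cells with fewer 43757, while the medians in knockdown cells were 41100 with at least 2 and 40212.5 with fewer. MKI67 and TOP2A, markers of dividing cells, summed to 223 CPM in knockdown cells with at least 2 UMIs, 290 CPM in knockdown cells with fewer, 267 CPM in control cells with at least 2 and 250 CPM in control cells with fewer. Mitochondrial UMIs made up 1.19% and 1.27% of the UMIs of those knockdown classes and 1.88% and 1.78% of those of the control classes. The 5 fibroblast markers summed to 11.7 and 6.87 CPM in those knockdown classes and to 23.0 and 13.9 CPM in those control classes, with 0 of 5 at 10 CPM in any class. The 4 immune markers, nearly all of it CD68, summed to 25.1 and 24.6 CPM in those knockdown classes and to 41.8 and 25.8 CPM in those control classes. With only cells at 0 UMIs of MKI67 and TOP2A, 62 genes of the stretch reached the floor. Their median log2 ratio was 0.51 for the division of control cells and -0.06 for that of knockdown cells. In barcodes of 10 to 100 UMIs, which mainly hold free RNA, TMEM132D-AS1 stood at 103 CPM in the knockdown library and 8.28 CPM in the control library, and the 59 genes stood at 2338 and 2250 CPM in knockdown and in control.

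Other genes separated the 4 classes too. SPANXB1, a cancer-testis gene of the X chromosome, stood at 241 and 460 CPM in knockdown cells with at least 2 TMEM132D-AS1 UMIs and with fewer, and at 202 and 0.967 CPM in control cells with at least 2 and with fewer. MAN1A1, a mannosidase of N-glycan trimming in the Golgi, stood at 0.522 and 2.65 CPM in those knockdown classes and at 11.6 and 81.4 CPM in those control classes. By the 1.5-fold rule both genes were called lower in knockdown cells with at least 2 UMIs than in knockdown cells with fewer, and in both knockdown classes each was far from its level in control cells with fewer than 2.

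The window of 64 measured genes, with the 5 left-out genes included, was set beside all 107 autosomal windows of 64 consecutive measured genes. Its median log2 ratio of knockdown over control, 0.47, was the highest of 107, where the windows ran from -0.78 upward; the window was chosen for that. The next highest was a chromosome 12 window from ITGA5 to TMBIM4, at 0.39, followed by the adjoining chromosome 9 window from PRPF4 to SET, at 0.30. Among cells with fewer than 2 UMIs, which reuse most of the same control cells, the window stood at 0.57 and the one from ITGA5 to TMBIM4 at 0.41. For control cells with at least 2 UMIs over control cells with fewer it was also the highest, at 0.45, with a chromosome 16 window from UBALD1 to NFATC2IP at 0.39, that from ITGA5 to TMBIM4 at 0.39 and that from PRPF4 to SET at 0.37 close behind. It ranked 29 of 107 for knockdown over control among cells with at least 2 UMIs, at -0.01, and 73 of 107 for the division of knockdown cells, at -0.08.

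**Figure D4:**
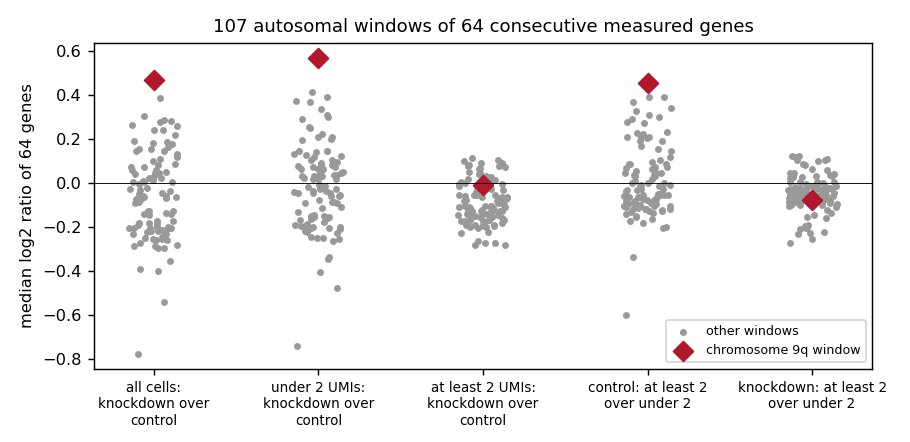
Median log2 ratio (vertical axis) of 107 autosomal windows of 64 consecutive measured genes in 5 contrasts (horizontal axis), with the chromosome 9q window as a red diamond and the others as grey points spread sideways for sight. The diamond tops the columns of knockdown over control in all cells (0.47) and in cells with fewer than 2 UMIs (0.57) and of the division of control cells (0.45), and lies among the other windows elsewhere.

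LPAR1 (ENSG00000198121, chr9:110873263-111038458), which encodes a G protein-coupled receptor for lysophosphatidic acid, had the largest ratios of the 59 genes in all cells, in the division of control cells and between cells with fewer than 2 UMIs. It stood at 23.3 CPM in knockdown cells with at least 2 TMEM132D-AS1 UMIs, 13.9 CPM in knockdown cells with fewer, 21.5 CPM in control cells with at least 2 and 0.763 CPM in control cells with fewer. A UMI of LPAR1 was seen in 980 of 1942 (50.5%), 247 of 732 (33.7%), 117 of 241 (48.5%) and 88 of 4145 (2.12%) cells of those classes. It was thus seen in few control cells with fewer than 2 UMIs and in a large share of each other class, and its log2 ratios of 4.81 (4.53 to 5.11) for the division of control cells and 0.74 (0.60 to 0.89) for that of knockdown cells lay far from the medians of 0.45 and -0.08. LPAR1 passed the floor through the knockdown library only, so its low level in most control cells is in part a matter of how it entered. LPAR1 overlaps a gene on the other strand, as 28 of the 59 do, and the labels do not state the strand setting of the counting.

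After LPAR1, the highest ratios over all cells among genes with at least 20 CPM were those of 2 genes of lipid handling, SLC44A1 (ENSG00000070214, chr9:105244622-105439171), a choline transporter, and UGCG (ENSG00000148154, chr9:111896766-111935369), which makes glucosylceramide. SLC44A1 stood at 44.0 and 38.9 CPM in knockdown cells with at least 2 TMEM132D-AS1 UMIs and with fewer, and at 30.6 and 15.1 CPM in control cells with at least 2 and with fewer. UGCG stood at 98.5 and 104 CPM in those knockdown classes, and at 75.1 and 50.4 CPM in those control classes. Both were lowest in control cells with fewer than 2 UMIs, and like 28 of the 59 both were higher in knockdown cells than in control cells among those with at least 2 UMIs, with log2 ratios of 0.52 (0.38 to 0.67) for SLC44A1 and 0.39 (0.30 to 0.49) for UGCG.

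The promoters of these 3 genes are printed because their ratios over all cells were the highest among members with at least 20 CPM. Bases upstream of the RefSeq start on GRCh38.p14 are given 5' to 3' on the gene's strand, LPAR1 at chr9:111038999-111039248 (minus), SLC44A1 at chr9:105244401-105244621 (plus) and UGCG at chr9:111896564-111896765 (plus), the last pair ending before the GENCODE start. Capitals mark matches on either strand to the motifs searched, the GC box GGGCGG, the CCAAT box, the TATA box TATAAA and the E-box CACGTG. None of the 4 contains another, and GC boxes can run together.
LPAR1: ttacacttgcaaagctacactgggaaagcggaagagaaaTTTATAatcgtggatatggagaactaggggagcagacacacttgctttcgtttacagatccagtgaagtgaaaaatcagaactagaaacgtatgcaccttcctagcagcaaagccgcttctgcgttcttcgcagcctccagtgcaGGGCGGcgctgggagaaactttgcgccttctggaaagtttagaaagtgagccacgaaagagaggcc
SLC44A1: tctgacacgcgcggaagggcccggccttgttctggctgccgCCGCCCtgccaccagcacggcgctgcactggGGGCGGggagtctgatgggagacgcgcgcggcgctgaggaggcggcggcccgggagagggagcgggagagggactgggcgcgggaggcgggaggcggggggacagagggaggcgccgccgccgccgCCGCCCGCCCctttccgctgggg
UGCG: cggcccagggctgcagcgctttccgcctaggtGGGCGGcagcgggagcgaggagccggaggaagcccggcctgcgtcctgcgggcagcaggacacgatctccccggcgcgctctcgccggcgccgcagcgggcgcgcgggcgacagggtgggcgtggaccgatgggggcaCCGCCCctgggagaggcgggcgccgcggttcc

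SLC44A1 held 4 GC boxes and UGCG 2, each with 30 CG pairs, while LPAR1 held 1 GC box, 1 TATAAA match and 11 CG pairs. Promoters of 51 of the 59 genes were in the RefSeq table. Over the 250 bases upstream, GGGCGG occurred in 82.4% of those 51, 69.9% of 6605 measured genes with an entry and 42.3% of all 27305 promoters. The other motifs were in 29.4% of the 51 against 35.4% of measured genes for CCAAT, 3.92% against 4.97% for TATAAA and 9.8% against 9.64% for CACGTG. The median number of CG pairs was 23 in the 51 and 22 in measured genes. Matches of letters are descriptions and name no bound factor.

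Of the 6 genes listed under lipid metabolism, LPAR1 among them as a receptor for a lipid, 4 were called higher over all cells, the contrast that chose the stretch, beside 7.7% of all genes, and their median log2 ratio was 0.94, against 0.42 for all 59. PTGR1, a reductase that acts on prostaglandins and other lipids, stood at 92.4 and 96.5 CPM in knockdown cells with at least 2 TMEM132D-AS1 UMIs and with fewer, and at 79.6 and 46.5 CPM in control cells with at least 2 and with fewer. SPTLC1, a subunit of the enzyme that starts sphingolipid synthesis, lies among the proximal 15 genes and had a log2 ratio of 0.16 over all cells. HSDL2, a peroxisomal dehydrogenase-like protein, had 0.21.

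Genes of the ER, Golgi and membrane traffic, 9 in all, had a median log2 ratio of 0.62 over all cells, the contrast that chose the stretch. There 5 were called higher, beside 19 of all 59 and 7.7% of all genes. In the division of control cells their median was 0.49, with 2 called higher beside 4.88% of all genes. TMEM38B, an ER cation channel, stood at 34.7 and 36.2 CPM in knockdown cells with at least 2 TMEM132D-AS1 UMIs and with fewer, and at 29.5 and 19.9 CPM in control cells with at least 2 and with fewer. SLC35D2, a transporter of nucleotide sugars, stood at 44.8 and 44.1 CPM in those knockdown classes and at 34.4 and 28.7 CPM in those control classes. NANS, which makes sialic acid, and ERP44, which retains proteins in the early secretory pathway, had small ratios over all cells, 0.09 and 0.14, and 0.49 and 0.27 in the division of control cells.

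Among 6 genes of genome maintenance the medians were 0.48 over all cells and 0.59 in the division of control cells, where 3 were called higher beside 4.88% of all genes. XPA, which recognises DNA damage in nucleotide excision repair, stood at 49.1 and 50.3 CPM in knockdown cells with at least 2 TMEM132D-AS1 UMIs and with fewer, and at 50.3 and 33.9 CPM in control cells with at least 2 and with fewer. RAD23B, a partner of the repair factor XPC, had log2 ratios of 0.42 over all cells and 0.58 in the division of control cells, and INIP, a subunit of a complex that binds single-stranded DNA, had 0.50 and 0.69. SMC2, a subunit of condensin, stood at 86.4 and 104 CPM in those knockdown classes and at 131 and 94.5 CPM in those control classes. Over all cells it had a log2 ratio of -0.09, while 5 of the 6 genes were above 0. Its log2 ratio was 0.48 in the division of control cells, -0.26 in that of knockdown cells and -0.61 (-0.68 to -0.53) for knockdown over control among cells with at least 2 UMIs. In the last 2 contrasts 0 and 1 of the 6 genes were above 0, so SMC2 differed there in size and not in direction from most of them.

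Transcription and chromatin, with 8 genes, had a median log2 ratio of 0.52 over all cells, the contrast that chose the stretch. There 4 were called higher, beside 19 of all 59 and 7.7% of all genes. In the division of control cells the median was 0.43, with 1 called higher beside 4.88% of all genes. ANP32B, a histone chaperone and the most abundant of the 59 genes, stood at 525 and 570 CPM in knockdown cells with at least 2 TMEM132D-AS1 UMIs and with fewer, and at 640 and 479 CPM in control cells with at least 2 and with fewer. RNF20, a ubiquitin ligase for histone H2B, had log2 ratios of 0.39 over all cells and 0.43 in the division of control cells. NFIL3, a bZIP repressor, had 0.75 over all cells although it lies among the proximal 15 genes, and ZNF462, a zinc finger protein, had 0.65.

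RNA processing and translation, with 9 genes, had medians of 0.26 over all cells and 0.44 in the division of control cells. PTBP3, a splicing regulator, stood at 94.1 and 112 CPM in knockdown cells with at least 2 TMEM132D-AS1 UMIs and with fewer, and at 87.9 and 66.3 CPM in control cells with at least 2 and with fewer. MRPL50, a mitochondrial ribosomal protein, had log2 ratios of 0.45 over all cells and 0.46 in the division of control cells. IARS, the cytosolic isoleucyl-tRNA synthetase, NOL8, a nucleolar protein, and FAM120A, an RNA-binding protein, all among the proximal 15, had -0.19, -0.10 and -0.11 over all cells and 0.20, 0.35 and 0.08 in the division of control cells.

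In the smaller groups, CDC26, a subunit of the anaphase-promoting complex and the most distal of the 59, stood at 108 and 114 CPM in knockdown cells with at least 2 TMEM132D-AS1 UMIs and with fewer, and at 124 and 72.3 CPM in control cells with at least 2 and with fewer. TRIM14, a tripartite motif protein of antiviral signalling, had log2 ratios of 0.54 over all cells and 0.81 in the division of control cells. SLC31A1, the main copper importer, had 0.33 and 0.71, and GNG10, a G protein gamma subunit, 0.88 and 0.31. CTNNAL1, an alpha-catenin-like protein and the second most abundant of the 59, stood at 168 and 227 CPM in those knockdown classes and at 217 and 207 CPM in those control classes, so it was lowest in knockdown cells with at least 2 UMIs, with a log2 ratio of -0.17 over all cells and -0.44 in the division of knockdown cells.

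SNX30 and CDC14B, both below 20 CPM, were picked out after their values were seen, for the largest ratios over all cells after LPAR1 apart from SLC44A1. SNX30, a sorting nexin of endosomes, stood at 11.5 and 12.1 CPM in knockdown cells with at least 2 TMEM132D-AS1 UMIs and with fewer, and at 8.12 and 3.31 CPM in control cells with at least 2 and with fewer. CDC14B, a phosphatase of the cell cycle, stood at 15.8 and 16.4 CPM in those knockdown classes and at 11.4 and 6.06 CPM in those control classes. For both, control cells with fewer than 2 UMIs were the lowest class and the 2 knockdown classes were nearly alike. Both passed the floor through the knockdown library only and were picked for high ratios, so nothing is read from their low level in control cells.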

How the data were processed

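The authors deposited unnormalised UMI counts of every gene in every barcode, made with Cell Ranger 3.1.0 per the file headers and aligned to GRCh38 per the submitters' processing notes. The strand setting, other counting options and any mouse reference are not stated there, so reads of mouse cells may have been counted or lost. The 2 matrices list 6794880 barcodes each and total 155064055 UMIs in knockdown and 239857346 in control. Gene positions came from GENCODE release 29 by identifier.

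Counts were summed over barcodes with at least 15000 UMIs and divided by their total to give CPM (per 1000000 UMIs). No doublet caller was run. Ratios add 0.5 counts to each sum for the log2 value and carry 95% intervals from the exact conditional binomial, and levels from the exact Poisson distribution; both cover counting error only. The code was tested on simulated data. The stretch, the gene lists, the left-out genes and the division by TMEM132D-AS1 were chosen with earlier results of these data known. Genes were named by mean CPM (12), by highest and lowest ratio (8 each, at 20 CPM or more), by role list (up to 4), at the edges and at the floor. MFSD14B and MFSD14C are near-copies of each other, and their counts may be split. Alternatives varied the barcode minimum, floor, scaling (TMM from edgeR 4.0.16, medians of ratios), cell weighting, call fold, TMEM132D-AS1 threshold and members. Promoters are RefSeq's. Python 3.11.15, numpy 2.4.6, scipy 1.17.1 and pandas 2.3.3 were used. The values of some single genes are not reported here, while counts and medians include all members.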

Additional observations from a re-analysis of the deposited data

How the results depend on the processing

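No paired analysis was possible because each group has 1 library. Of 186 alternative values, 144 stayed within a set tolerance or within 1.5 times the count given and 42 moved further. For median log2 ratios the tolerance ran from 0.06 for knockdown over control to 0.15 for that contrast among cells with at least 2 TMEM132D-AS1 UMIs. It is of the size of counting error for a single gene and not for a median over 59, so a median near 0 could change sign within it. The median of the first genes of the stretch for knockdown over control changed sign: it was -0.03 over 10 genes and 0.21 over 20. The median among cells with at least 2 TMEM132D-AS1 UMIs, -0.04, was 0.03 with TMM, 0.01 with at least 1 UMI against 0 and 0.02 without the proximal 15 genes, so its sign was not fixed. The median log2 ratio of knockdown over control was 0.34 with a floor of 50 CPM, 0.50 with no floor, 0.49 with median-of-ratios scaling and 0.50 without the proximal 15 genes, the last added after the data were seen. The other medians ran from 0.41 to 0.51 for the division of control cells, from -0.11 to -0.02 for that of knockdown cells, from 0.48 to 0.58 for knockdown over control among cells with fewer than 2 TMEM132D-AS1 UMIs and from -0.13 to 0.03 among those with at least 2.

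Counts moved more. They are out of 59 genes unless another number is given. Shares over all genes are not given for changed floors, scaling, cells or TMEM132D-AS1 thresholds, so nothing is read from the counts under those settings. For knockdown over control, members called higher were 11 of 43 at a floor of 20 CPM, 4 of 17 at 50 CPM and 50 of 143 with no floor (2 lower). They were 12 of 31 without genes overlapping the other strand, beside 7.7% of all genes. At a 25% difference they were 33, beside 17.6%, and at 2-fold 5, beside 229 of all 7872 genes. For the division of control cells they were 9 of 43 at 20 CPM, 3 of 17 at 50 CPM and 33 of 125 with no floor (1 lower). In cells without MKI67 and TOP2A they were 26 of 62 (1 lower). They were 7 of 31 without overlapping genes, beside 4.88% of all genes. At a 25% difference they were 43 (1 lower), beside 14.9% (13.1% lower), and at 2-fold 3, beside 131 of all 7872 genes. With cells weighted equally 1 was called lower. For the division of knockdown cells 3 were called lower at a 25% difference, beside 4.84% of all genes, and 0 higher with TMEM132D-AS1 thinned to 15000 UMIs. For knockdown over control among cells with at least 2 UMIs, higher calls were 2 with TMM, 1 with equal weights and 2 of 62 in cells without MKI67 and TOP2A. Higher calls were also 11 at a 25% difference (9.69% of all genes), 2 with at least 1 UMI against 0 and 1 after thinning. Lower calls were 0 with barcodes of at least 20000 UMIs, 0 with TMM and 3 of 62 in cells without MKI67 and TOP2A. Lower calls were also 8 at a 25% difference (19.5% of all genes) and 0 with at least 1 UMI against 0. Among cells with fewer than 2 UMIs, 42 were called higher at a 25% difference, beside 18.9% of all genes. The floor changes the number of genes admitted, and the median for knockdown over control moved with it too. The cause of these moves was not tested. With 241 control cells with at least 2 UMIs, depth limits the ratios of low genes most.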
